A study of Mus musculus with 9 samples.

Results

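RNA-seq libraries of 3T3-L1 cells after 8 days of differentiation were compared with libraries of the cells before induction. The comparison used 6 of the 9 samples of the series, 3 at day 0 and 3 at day 8, chosen by the day given in the sample titles. 3T3-L1 is a clonal mouse line of preadipocytes that fills with lipid after hormonal induction. In the study, confluent cells received a medium with dexamethasone, IBMX and insulin, followed by medium with insulin, so the day 8 cells had been exposed to all 3 agents and the day 0 cells to none. According to the methods, each sample was prepared from a mixture of RNA. Nothing in the sources used here says that the samples of a day came from separate cultures, so the p-values measure only the spread between these samples, which may be technical. The 3 further samples, taken at day 4, entered the same model as a group of their own and are given only as levels between the ends. The deposited expected counts summed to 20445783, 18216114 and 20452144 at day 0 and to 20146876, 20205942 and 19898142 at day 8. Of 19094 genes in the files, 18551 had a value in at least 1 of the 6 samples.

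Adipocyte differentiation is driven by a cascade of transcription factors in which C/EBPβ and C/EBPδ act early and PPARγ and C/EBPα later, the last pair binding many of the genes that define the fat cell. Mature adipocytes take up fatty acids through lipoprotein lipase and CD36, esterify them to triglyceride, store them in a droplet coated with perilipins and release them again by lipolysis. They also secrete adipokines and respond to insulin through the glucose transporter GLUT4. Many of these functions are carried by gene families in which another member does a similar task in the fibroblast-like precursor.

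At day 8, 1356 genes had risen and 1013 had fallen among 13154 tested, which is 10.3% and 7.70% of the genes tested and 18.0% together (edgeR quasi-likelihood test, with an adjusted p below 0.05 and more than a 2-fold difference required). Without the fold requirement, 9339 of the 13154 had an adjusted p below 0.05 (edgeR), so differences between the days were common. The share of all genes whose samples did not overlap is not given here. A lack of overlap alone therefore does not set a gene apart. The excess of rises depended on the normalization: with scaling by library size alone 1190 genes rose and 1214 fell. The rises were larger than the falls in their upper range. Changes of more than 8 times were found for 396 rises and 90 falls, and changes of more than 32 times for 183 rises and 8 falls. Genes that rose held 5.002%, 4.97% and 5.002% of the summed FPKM (fragments per kilobase of transcript, scaled to the depth of the sample) in the day 0 samples and 16.4%, 17.5% and 17.8% in the day 8 samples. Genes that fell held 3.99%, 3.83% and 3.85% at day 0 and 1.16%, 1.14% and 1.13% at day 8. These shares describe genes chosen on the same values. In bulk RNA, fewer cells of a type and less RNA per cell cannot be told apart.

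The labels call all samples adipocytes. The 10 adipocyte markers used here all rose, beside 10.3% of all genes tested. Their summed level was 34.8 FPKM at day 0 and 8221 FPKM at day 8, with Fabp4 as the most abundant. Adipoq, the gene of adiponectin, was at 0.60, 0.63 and 0.28 FPKM in the day 0 samples and at 753, 840 and 866 FPKM in the day 8 samples. The day 0 libraries thus held adipocyte markers at low levels and the day 8 libraries at high ones, with no overlap for Adipoq. Of the 10 markers of preadipocytes and fibroblasts, none rose and 2 fell, beside 10.3% and 7.70% of all genes tested. Their summed level was 8100 FPKM at day 0 and 7736 FPKM at day 8, with Col1a2 as the most abundant. Ly6a, which encodes the progenitor surface antigen Sca-1, was at 166.4, 163.2 and 171 FPKM at day 0 and at 40.2, 37.9 and 38.4 FPKM at day 8. Dlk1, the inhibitor of adipogenesis known as preadipocyte factor 1, was at 828 ± 33.6 FPKM at day 0 and at 415 ± 5.57 FPKM at day 8 (SD, n = 3 each), which did not pass the fold threshold (log2 fold change −0.88 ± 0.06 SE, adjusted p = 9.61e-10, edgeR). The sum was held up by the collagens Col1a1 and Col1a2, at 1540 and 1835 FPKM on day 0 and at 2270 and 2512 FPKM on day 8. Vim was at 2541 and 1425 FPKM, and Cd34, which fell, was below 1 FPKM on both days. The call of Cd34 was lost with limma on log2(FPKM + 1) and log2(FPKM + 0.1) and without day 0 replicate 3. The log2 fold changes there were −0.32, −0.99 and −0.99. Whether the remaining levels at day 8 came from cells that had not differentiated was not tested.

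Markers of other cell types were mostly near 0 at both ends. Their calls stand beside the 10.3% of all genes tested that rose and the 7.70% that fell, and many of these markers were not tested. Of 9 brown adipocyte markers 8 stayed below 1 FPKM in every sample, and 2 rose. Ucp1, the uncoupling protein of brown fat, had no value in any of the 6 samples. Cox8b, a cytochrome oxidase subunit, was at 0 in every day 0 sample and at 13.2, 12.8 and 10.7 FPKM at day 8, and Elovl3, a fatty acid elongase, rose from 0 to 0.310 FPKM, a call lost with limma on log2(FPKM + 1). Of 7 endothelial markers, Cldn5 was in none of the files and the other 6 stayed below 1 FPKM, with Vwf called lower and Pecam1 higher (calls lost under 1 and 4 alternatives), as did 5 of 8 macrophage or leukocyte markers, the latter list with a sum of 7.91 FPKM at day 0 and 5.50 FPKM at day 8 and Cd14 as its most abundant gene. The extraction text in the labels names dorsal root ganglia. Of 12 sensory neuron markers, 10 stayed below 1 FPKM in every sample, Trpv1 among them, although it rose. The exceptions were P2rx3, a purinergic channel subunit, whose level of 23.1 ± 3.35 FPKM before induction and 18.2 ± 0.40 FPKM on day 8 (SD, n = 3 each) was not called, and Avil, an actin-binding protein, which fell from 2.32 ± 0.27 to 0.483 ± 0.060 FPKM. Of 8 Schwann cell markers 3 stayed below 1 FPKM, and the sum of 150 FPKM at day 0 and 177 FPKM at day 8 came mostly from Pmp22, a gene that fibroblasts also express. For skeletal muscle, Myod1 was in none of the files and 3 of the other 6 markers stayed below 1 FPKM, while Des, the muscle intermediate filament, rose from 3.74 to 8.23 FPKM and Acta1, the skeletal muscle actin, rose from 0.730 to 1.40 FPKM, calls lost under 1 and 6 alternatives, with a summed level of 5.72 FPKM at day 0 and 10.3 FPKM at day 8. For osteoblasts or chondrocytes 4 of 8 did, with Sox9, which fell, at 58.9 FPKM on day 0 and 18.9 FPKM on day 8, Alpl, which rose, at 0.0567 and 3.64 FPKM and Runx2, which was not called, at 18.05 and 16.1 FPKM. The part of other cell types in the results was not tested.

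The most abundant transcripts at the ends of differentiation overlapped in part. Among the 20 genes with the highest mean FPKM, 12 were shared between the days, 8 stood in the day 0 list alone and 8 in the day 8 list alone. At day 0 the list was led by Eef1a1, the translation elongation factor, at 5319 ± 112 FPKM, followed by the ferritin genes Fth1 and Ftl1, the ribosomal protein gene Rplp1, the proteoglycan gene Bgn and Vim, the intermediate filament of mesenchymal cells. At day 8 it was led by the glycolytic gene Gapdh, which was at 1589, 1686 and 1543 FPKM in the day 0 samples and at 4635, 5197 and 5944 FPKM in the day 8 samples. Gapdh rose (log2 fold change 1.82 ± 0.09 SE, adjusted p = 1.60e-11, edgeR) and went from rank 18 to rank 1 by mean FPKM. In day 8 sample 1 Fabp4 was higher, at 4654 FPKM. Since 24.7% of the stretches of 50 bases of Gapdh also occur in other genes, the exact level of Gapdh is uncertain.

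Fabp4, which encodes the fatty acid binding protein of adipocytes, was second at day 8. It was at 9.08, 11.3 and 8.21 FPKM at day 0, where it ranked 6677, and at 4654, 4939 and 4891 FPKM at day 8. The genes that entered the upper 20 from far below were Fabp4, Scd1, Lpl and Aldoa. Scd1, a desaturase that makes oleate, was at 32.2, 39.4 and 34.2 FPKM at day 0 and at 1724, 2102 and 2129 FPKM at day 8. Lpl, the lipoprotein lipase, was at 117 ± 3.95 FPKM at day 0 and at 1748 ± 149 FPKM at day 8 (SD, n = 3 each). Aldoa, the glycolytic aldolase, was at 476 ± 1.81 FPKM at day 0 and at 2181 ± 107 FPKM at day 8. None of these 4 genes overlapped between the days.

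The other entries into the day 8 list came from the matrix. Col3a1, a fibrillar collagen, was at 906, 677 and 836 FPKM at day 0 and at 1847, 1884 and 1943 FPKM at day 8, and Sparc, a collagen-binding glycoprotein, was at 775 ± 11.2 and 1573 ± 29.3 FPKM. Both rose. Col1a1, the main chain of type I collagen, was at 1540 ± 39.0 FPKM at day 0 and at 2270 ± 18.3 FPKM at day 8, with a log2 fold change of 0.67 ± 0.05 SE that was below the threshold. Ptn, a growth factor bound by heparin, was the remaining entry and also was not called.

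The genes that left the list were Bc1, Rplp0, Actb, Rpl23a, Rps26, Rpl12, B2m and Rpl28, none of which passed the fold threshold. Ribosomal protein genes numbered 8 of the 20 at day 0 and 3 of the 20 at day 8. Rpl12, a protein of the large subunit, was at 1605, 1631 and 1600 FPKM at day 0 and at 953, 912 and 965 FPKM at day 8. Actb, the cytoplasmic actin, was at 1905 ± 146 FPKM at day 0 and at 1235 ± 47.5 FPKM at day 8. The means of both were lower at day 8 by less than 2 times, with no overlap between the days.

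**Figure D1:**
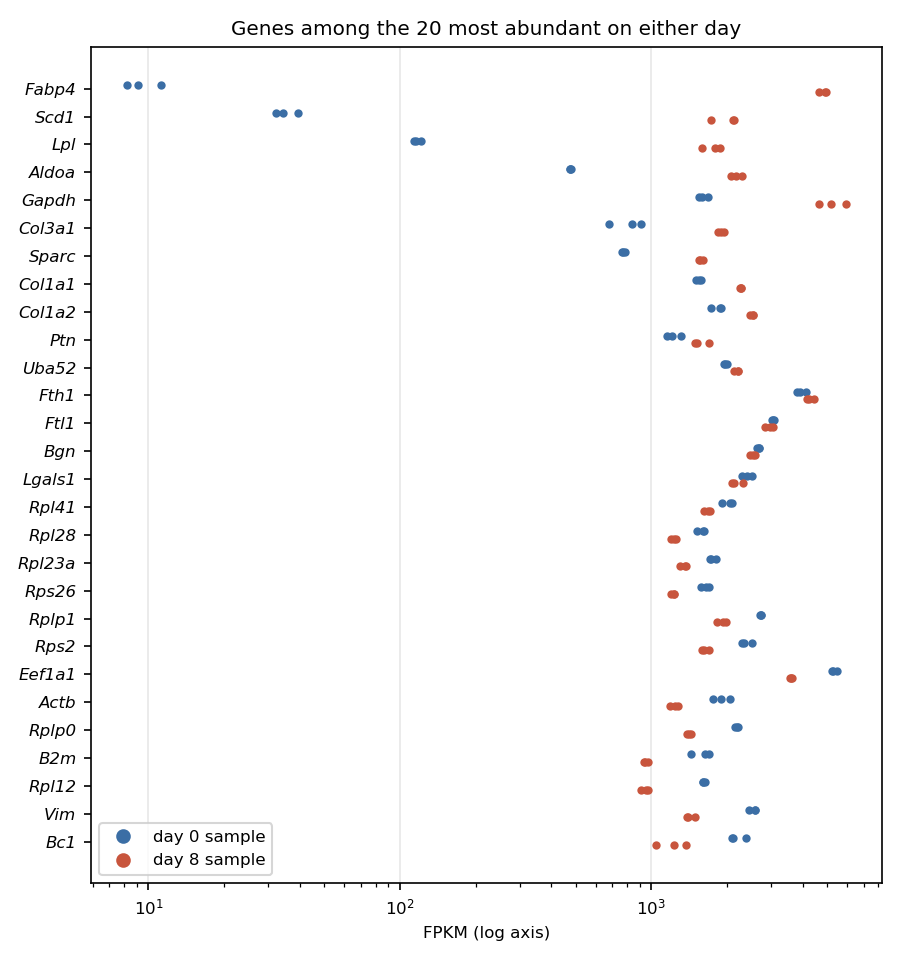
FPKM (log axis) in each of the 6 samples for the 28 genes that were among the 20 most abundant at day 0 or at day 8, ordered by the ratio of the day means; blue points are day 0 samples and red points day 8 samples. Fabp4 lies between 8.21 and 11.3 FPKM at day 0 and between 4654 and 4939 FPKM at day 8, while most of the other genes differ by less than 2 times.

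The share of the transcript pool taken by gene lists shifted with these genes. Cytosolic ribosomal proteins held 15.0% ± 0.18 of the summed FPKM at day 0 and 11.4% ± 0.17 at day 8 (SD, n = 3 each). Fatty acid uptake and triglyceride synthesis, a list of 20 genes, held 0.0757% ± 0.0016 and 1.83% ± 0.09, with Lpl as its most abundant gene at day 0 and Fabp4 at day 8. Glycolysis, with 17 genes, held 0.960% ± 0.041 and 2.76% ± 0.23. Gapdh was its leading gene on both days. The collagens and interstitial matrix held 2.72% ± 0.14 and 3.67% ± 0.02, a direction that turned when the 10 most abundant genes of each sample were left out. Interferon-stimulated genes held 0.654% ± 0.087 at day 0 and 0.275% ± 0.004 at day 8. The size of these differences depended on the measure. As shares of expected counts the difference of day 8 minus day 0 was −1.11 percentage points for ribosomal proteins in place of −3.69, and −0.250 for interferon-stimulated genes in place of −0.380. Without the 10 most abundant genes of each sample it was 0.326 for glycolysis in place of 1.80 and 0.737 for fatty acid uptake in place of 1.76. On the FPKM scale the samples of the days did not overlap for all 17 lists, and the two-sided exact permutation p of 0.1 is the smallest that 3 against 3 samples allow. A lack of overlap alone does not set these lists apart. Of 13154 genes tested, 9339 had an adjusted p below 0.05 (edgeR) when no fold was asked. As shares of expected counts the receptors gave p = 0.6, and without the 10 most abundant genes the interstitial matrix gave p = 0.5, by the same exact permutation test.

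**Figure D2:**
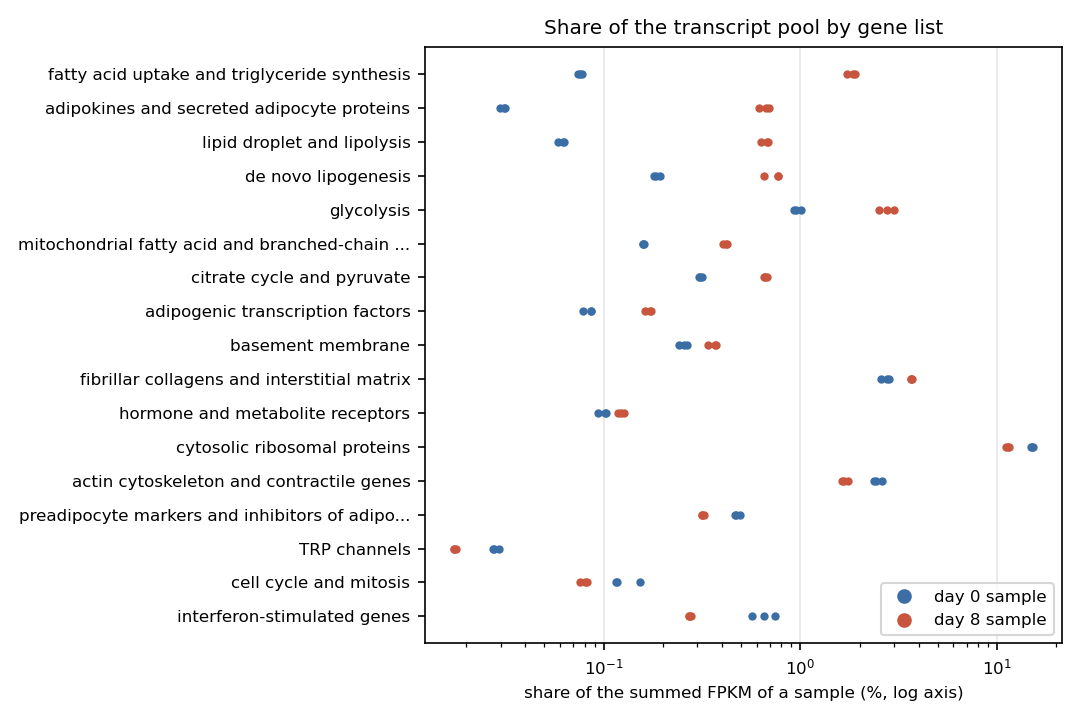
Share of the summed FPKM of each sample (%, log axis) held by 17 gene lists, ordered by the ratio of the day means; blue points are day 0 samples and red points day 8 samples. The fatty acid uptake and triglyceride list lies at the top, with means of 0.0757% at day 0 and 1.83% at day 8, and the interferon-stimulated genes at the bottom, with 0.654% and 0.275%.

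Genes that were switched on outnumbered those that were switched off. By a rule of at most 3 counts in every day 0 sample and at least 1 FPKM in every day 8 sample, 65 genes were gained. Of these, 59 were tested and all 59 were called, which the rule itself brings about. The other 6 were short RNAs (Rnu7, Gm38670, Snord14e, Snord49a, Mir3960 and Mir7025) with at most 3 counts in any day 8 sample. The median level of the gained genes at day 8 was 4.38 FPKM, 15 of them were at 10 FPKM or more, and 39 were already at 1 FPKM or more in every day 4 sample. The same rule turned around named 13 genes as lost, and all were small nucleolar RNAs or microRNAs with at most 9 counts in a day 0 sample. None of these was tested or called, and Mir3960 met both rules, since 1 to 3 counts reach 1 FPKM on so short a gene. With at least 10 counts asked of every sample of the present day, a condition added after the lists were seen, 59 genes were gained and 0 were lost.

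The 10 most abundant gained genes were Retn, Ghrh, Mrap, Car3, Lgals12, Ear12, Hcar2, Ffar4, Ear1 and Ear3. Retn, the adipokine resistin, had at most 3 counts in a day 0 sample and was at 385, 395 and 395 FPKM at day 8. Ghrh, the growth hormone-releasing hormone of the hypothalamus, was at 157, 212 and 266 FPKM at day 8, the widest relative spread of the 10, and at 5.87 FPKM at day 4. Mrap, an accessory protein that brings the ACTH receptor to the surface, was at 115 ± 10.99 FPKM at day 8 (SD, n = 3), and its partner Mc2r also rose, from 0.0833 to 4.68 FPKM.

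Several of the gained genes encode receptors for metabolites. Ffar4, the receptor for long-chain fatty acids also called GPR120, had 0 counts in all day 0 samples and was at 17.4, 20.1 and 21.2 FPKM at day 8, at least 177-fold higher than the floor of 3 counts per library. Hcar2 and Hcar1, the receptors for hydroxybutyrate and lactate, were at 20.9 ± 2.47 and 17.1 ± 0.95 FPKM at day 8. Adrb3, the adrenergic receptor of fat cells, had 0 counts at day 0 and was at 7.24, 8.19 and 7.22 FPKM at day 8, at least 139-fold above the floor. Across the list of hormone and metabolite receptors, 14 of 28 tested rose and 2 fell, beside 10.3% and 7.70% of all genes tested, so that the share of falls was near the background. Their median log2 fold change was 0.76, and that over all genes tested was −0.02. Ear1, Ear2, Ear3 and Ear12, ribonucleases named after eosinophils, were all gained, and Ear12 was higher at day 4 (99.98 FPKM) than at day 8 (22.6 ± 3.46 FPKM). Since 28.6% of the stretches of 50 bases of Ear1 and 37.6% of those of Ear2 also occur in other genes, the split between these members is uncertain.

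A looser rule, chosen after these lists were seen, asked for less than 1 FPKM in every sample of one end and at least 5 FPKM and 10 counts in every sample of the other. It named 86 genes as on and 6 as off at day 8, and all were called, as the rule brings about. The 86 genes held 1.21% of the summed FPKM at day 8, and the 6 genes held 0.0137% at day 0. Of the 86, 77 were at 1 FPKM or more in every day 4 sample and 42 were at 5 FPKM or more, and 16 had a higher mean at day 4 than at day 8. Besides the adipokines and droplet proteins, they included Gpd1, the cytosolic glycerol-3-phosphate dehydrogenase, at 621 ± 13.6 FPKM, and Hsd11b1, which regenerates active glucocorticoid, at 139 ± 14.7 FPKM. Slc2a4, the insulin-responsive glucose transporter GLUT4, was at 0.12, 0.27 and 0.10 FPKM at day 0 and at 47.0, 52.1 and 55.4 FPKM at day 8. Col15a1, a basement membrane collagen, was at 0.587 ± 0.158 and 22.7 ± 5.15 FPKM.

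The 6 genes that were off at day 8 were Ptgs2, Oas1a, Oas2, Il1rl1, Oas1b and Etv4. Ptgs2, the inducible cyclooxygenase, was at 12.5, 18.7 and 16.02 FPKM at day 0 and at 0.58, 0.51 and 0.48 FPKM at day 8. Oas1a, Oas1b and Oas2 are interferon-induced sensors of double-stranded RNA, and 57.6% of the stretches of 50 bases of Oas1a also occur in other genes. Il1rl1, the receptor for interleukin-33, was at 5.17, 10.4 and 6.62 FPKM at day 0 and at 0.33, 0.36 and 0.26 FPKM at day 8. Etv4, an ETS transcription factor, was at 6.33 ± 0.94 FPKM at day 0 and at 0.68 FPKM in each day 8 sample. At day 4, 3 of the 6 were below 1 FPKM in every sample.

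**Figure D3:**
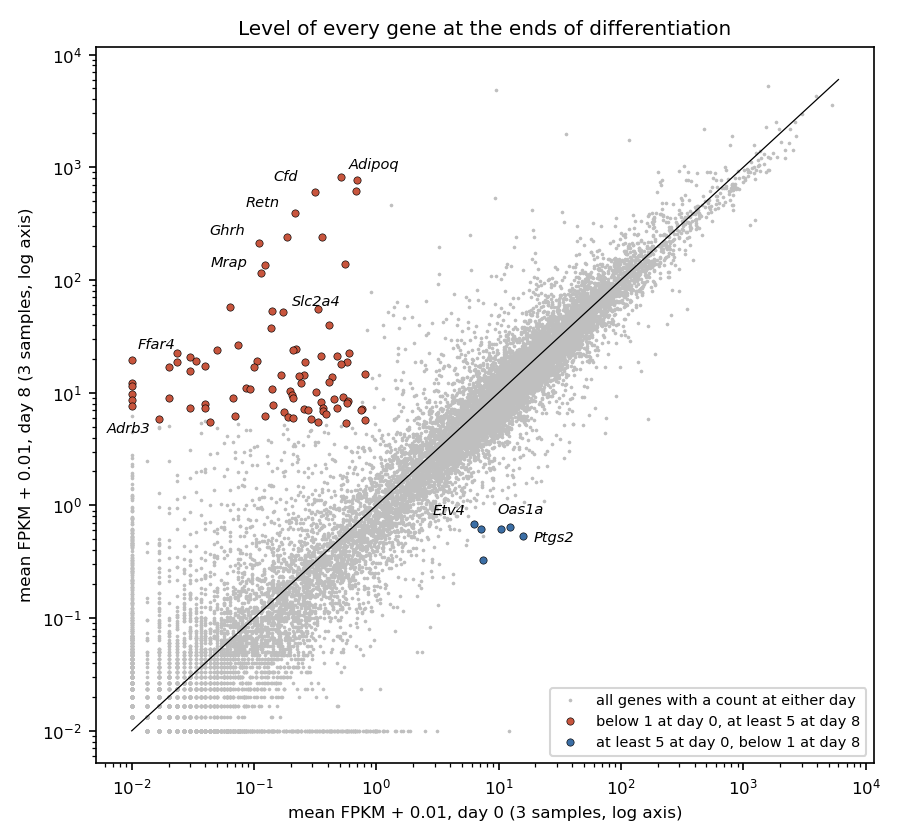
Mean FPKM plus 0.01 of every gene at day 0 (horizontal, log axis) and at day 8 (vertical, log axis), 3 samples each; the line marks equal levels. The 86 genes below 1 FPKM at day 0 and at 5 FPKM or more at day 8 are red and spread up to the 820 FPKM of Adipoq, and the 6 genes with the reverse pattern are blue and reach no further than the 15.7 FPKM of Ptgs2 at day 0.

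Among genes with a mean of at least 10 FPKM on the higher day, the 10 largest falls were those of Rps27rt, Ptgs2, Grem1, Ifi44, Oas1a, Oas2, Oasl2, Id2, Hist1h2ao and Npy1r. Grem1, a secreted antagonist of BMP signalling, was at 146, 191 and 159 FPKM at day 0 and at 6.12, 5.80 and 5.49 FPKM at day 8 (log2 fold change −4.72 ± 0.12 SE, adjusted p = 1.69e-14, edgeR). Id2, which blocks bHLH transcription factors, was at 13.2, 17.6 and 18.02 FPKM and at 1.01, 1.01 and 1.18 FPKM. Npy1r, a receptor for neuropeptide Y, was at 34.1 ± 3.52 FPKM before induction, at 13.4 FPKM on day 4 and at 2.60 ± 0.45 FPKM on day 8. The fall of Rps27rt rests on 12.04, 0 and 24.1 FPKM at day 0 against 0 at day 8, and 91.1% of its stretches of 50 bases also occur in Rps27 or other genes, so it is uncertain. The same holds for Hist1h2ao, a replication-dependent histone with 93.5% shared.

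The leading member changed in 20 of 88 families of related genes. The leader is the member with the highest FPKM in all 3 samples of a day, and both leaders have a mean of at least 5 FPKM. The condition on the level alone was met by 77 of the 88. In 12 of the 20 the new leader rose while the old one was not called, in 3 both rose, in 3 the old leader fell while the new one was not called, and in 2 neither was called. There was no family in which the old leader fell and the new one rose by the thresholds used, but Gpd2, an old leader, passed as a fall with library size alone (log2 fold change −1.03) and with limma on log2(FPKM + 0.1) (−1.02). The calls of Idh1 and Ppard, counted here as rises, were lost under 5 and 4 alternatives, with log2 fold changes of 1.04 and 1.03 in the test used and of 0.92 to 0.99 and 0.89 to 0.97 under those alternatives. The order of the leaders on each day is fixed by the rule, so it carries no test. Without scaling to gene length, 15 of the 20 families kept the same change of leader, and the isocitrate dehydrogenases, perilipins, acyl-CoA synthetases, insulin receptor substrates and carbonic anhydrases did not.

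In glycerolipid metabolism the new leaders were genes of the adipocyte. Gpd1 held 3.07% of the FPKM of the glycerol-3-phosphate dehydrogenases at day 0 and 97.5% at day 8, while Gpd2, the mitochondrial enzyme, went from 13.8, 14.2 and 13.7 FPKM to 6.45, 7.27 and 6.61 FPKM (log2 fold change −0.92, close to the fold threshold). Acsl1 took over from Acsl5 among the acyl-CoA synthetases and was at 9.26 ± 0.30 FPKM at day 0 and at 535 ± 32.7 FPKM at day 8. Agpat2 took over from Agpat1, Lpin1 from Lpin2 and Scd1 from Scd2, enzymes of phosphatidate, diglyceride and oleate synthesis. In each of these 5 families the new leader rose and the old one was not called. Scd2 was close to the threshold, at 268 ± 15.98 FPKM at day 0 and 473 ± 36.3 FPKM at day 8 (log2 fold change 0.94 ± 0.07 SE), and passed as a rise without day 8 replicate 1 (1.01).

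Among lipid-binding proteins the old leader rose as well. Fabp5, the epidermal fatty acid binding protein, was at 33.0, 35.5 and 33.7 FPKM at day 0 and at 318, 326 and 347 FPKM at day 8, but Fabp4 rose further and held 21.7% of the family at day 0 and 93.6% at day 8. Plin2, the perilipin found on droplets of most cells, was at 85.9 ± 2.30 and 221 ± 11.1 FPKM, and Plin1, the perilipin of adipocytes, was at 0.177 ± 0.085 and 243 ± 8.21 FPKM. At day 8 the levels of these 2 perilipins were close, and each day 8 sample of Plin1 was above the Plin2 level of the same sample. In both families, the old leader thus became a smaller share of a larger total.

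In carbon metabolism, Pfkl took over from Pfkm, Idh1 from Idh2 and Car3 from Car13. Pfkl, the liver form of phosphofructokinase, was at 19.1, 19.95 and 19.2 FPKM at day 0 and at 102, 106 and 112 FPKM at day 8, while Pfkm, the muscle form, was at 42.8 ± 0.82 and 44.9 ± 1.204 FPKM. Idh1 and Idh2, cytosolic and mitochondrial isocitrate dehydrogenases, were close on both days, with 47.5% of the pair held by Idh1 at day 0 and 56.8% at day 8. The glucose transporters did not change leader, since Slc2a1, the ubiquitous GLUT1, was at 65.4 ± 2.50 FPKM at day 0 and 113 ± 10.1 FPKM at day 8, above the Slc2a4 levels given before.

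Among secreted proteins, the C1q/TNF, angiopoietin-like and IGF binding protein families changed leader, with the new leader called higher. Of the other secreted families, the SPARC, TIMP, CCN and resistin families kept their leader, the last with a summed level of 0.293 FPKM at day 0. The insulin-like growth factors went from Igf1 to Igf2, which held 37.1% of the pair at day 0 and 85.9% at day 8. They were not counted, since Igf1 was below the 5 FPKM asked of a leader. The thrombospondins, given below, changed leader with a fall of the old one. Adiponectin took the lead of the C1q/TNF family from C1qtnf6, with 0.869% of the family at day 0 and 88.3% at day 8. Angptl4, an inhibitor of lipoprotein lipase, was at 12.2, 11.5 and 11.7 FPKM at day 0 and at 137, 137 and 144 FPKM at day 8, and Angptl2 was at 75.4 ± 1.27 and 72.2 ± 1.33 FPKM. Igfbp4, which binds insulin-like growth factors, was at 33.2 ± 2.83 FPKM at day 0 and at 403 ± 28.7 FPKM at day 8, while Igfbp7 was at 250.1 ± 12.4 and 353 ± 0.66 FPKM. The old leaders of these 3 families were not called.

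Of the transcription factor families, those of the C/EBP factors and the PPAR nuclear receptors changed leader, while the leaders of the retinoid X receptors, EBF factors and Id proteins stayed the same. Cebpb was at 81.3, 63.9 and 72.7 FPKM at day 0 and at 102, 105 and 109 FPKM at day 8 (log2 fold change 0.65 ± 0.07 SE, not called), and Cebpa was at 5.54, 5.86 and 6.26 FPKM at day 0 and at 118, 126 and 126 FPKM at day 8 (log2 fold change 4.50 ± 0.11 SE, adjusted p = 1.05e-14, edgeR). All 3 day 8 samples of Cebpa were above Cebpb, by a narrow margin. Cebpd, which acts early, was at 23.0 ± 2.24 FPKM before induction, at 101 FPKM on day 4 and at 17.95 ± 0.56 FPKM on day 8. Pparg was at 11.5 ± 0.16 FPKM at day 0 and at 129.7 ± 9.13 FPKM at day 8 and passed Ppard, which rose from 30.4 ± 0.56 to 57.2 ± 1.65 FPKM. Of 23 adipogenic transcription factors tested, 12 rose and 2 fell, beside 10.3% and 7.70% of all genes, with a median log2 fold change of 1.05. The share of falls, those of the Krüppel-like factors Klf4 and Klf5, was near the background.

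In both the C/EBP factors and the IGF binding proteins, the new leader has TATAAA just before its transcription start and the old leader does not. The bases at that place are shown for these genes. They are the 100 bases before the start in RefSeq, build GRCm38.p6, read 5′ to 3′ on the strand of the gene, for Cebpb at chr2:167688815-167688914 (+), Cebpa at chr7:35119193-35119292 (+), Igfbp7 at chr5:77408046-77408145 (−) and Igfbp4 at chr11:99041144-99041243 (+). Capitals mark the TATA box TATAAA or the GC box GGGCGG on either strand.
Cebpb: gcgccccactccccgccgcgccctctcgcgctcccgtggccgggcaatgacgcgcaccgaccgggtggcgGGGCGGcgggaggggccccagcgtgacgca
Cebpa: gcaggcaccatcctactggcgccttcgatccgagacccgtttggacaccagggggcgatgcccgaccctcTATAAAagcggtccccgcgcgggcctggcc
Igfbp7: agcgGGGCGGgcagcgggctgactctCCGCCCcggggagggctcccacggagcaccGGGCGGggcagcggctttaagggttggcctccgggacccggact
Igfbp4: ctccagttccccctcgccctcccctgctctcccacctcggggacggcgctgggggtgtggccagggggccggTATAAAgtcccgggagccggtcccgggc
Cebpa has TATAAA starting 30 bases before its start and Igfbp4 28 bases before, whereas these stretches of Cebpb and Igfbp7 hold GC boxes and no TATAAA. Cebpb has a TATAAA 21 bases after its start, outside the stretch shown. The other new leaders with a window held no TATAAA in these 100 bases, so the families shown are those whose new leader held it. Gpd1, Fabp4, Scd1, Insr, Angptl4 and Car3, also new leaders, had no window. Only the first window listed for a gene was searched. Leaders of other families also differed in GC boxes there, in both directions. Ppard had 2 and Pparg, the new leader, 0, while Pfkm had 0 and Pfkl, the new leader, 1. In windows of 250 bases before to 50 bases after the start, searched on both strands, TATAAA was found in 7.09% of the 10416 tested genes with a window, in 9.07% of those that rose, in 10.9% of those that fell and in 5.26% of the 57 genes with a window that were on at day 8 alone. GGGCGG was found in 63.6% of the tested genes, 56.0% of those that rose, 49.9% of those that fell and 36.8% of those 57 genes. Over all 27025 windows of the table the shares were 14.2% for TATAAA and 35.9% for GGGCGG. A match is a description of the letters and not of factor binding.

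Of the insulin and IGF-1 receptors, the old leader was the one called. Igf1r, the IGF-1 receptor, was at 8.72, 8.15 and 8.04 FPKM at day 0 and fell to 2.73, 2.78 and 2.93 FPKM, and Insr, the insulin receptor, was at 8.22, 8.12 and 7.97 FPKM at day 0 and at 7.86, 8.84 and 8.70 FPKM at day 8. At day 0 the receptors were nearly level in each sample, and at day 8 Insr held 75.0% of the family. Irs2 was above Irs1 at day 8 (15.98 ± 0.49 against 14.4 ± 0.65 FPKM) and below it at day 0 (10.4 ± 0.80 against 15.4 ± 0.74 FPKM), and neither of these insulin receptor substrates was called.

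The old leader also fell, with the new one not called, among tropomyosins and thrombospondins. Tpm1, an actin-binding tropomyosin, fell from 361, 418 and 396 FPKM to 163, 151 and 136 FPKM and was passed by Tpm4, which was at 251 ± 31.4 and 189 ± 2.09 FPKM. Thbs1, a matricellular thrombospondin, fell from 239 ± 7.07 FPKM to 41.0 ± 0.22 FPKM, and Thbs2 was at 117 ± 2.66 and 94.4 ± 1.23 FPKM. Cnn3 passed Cnn2 among the calponins, with neither called.

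**Figure D4:**
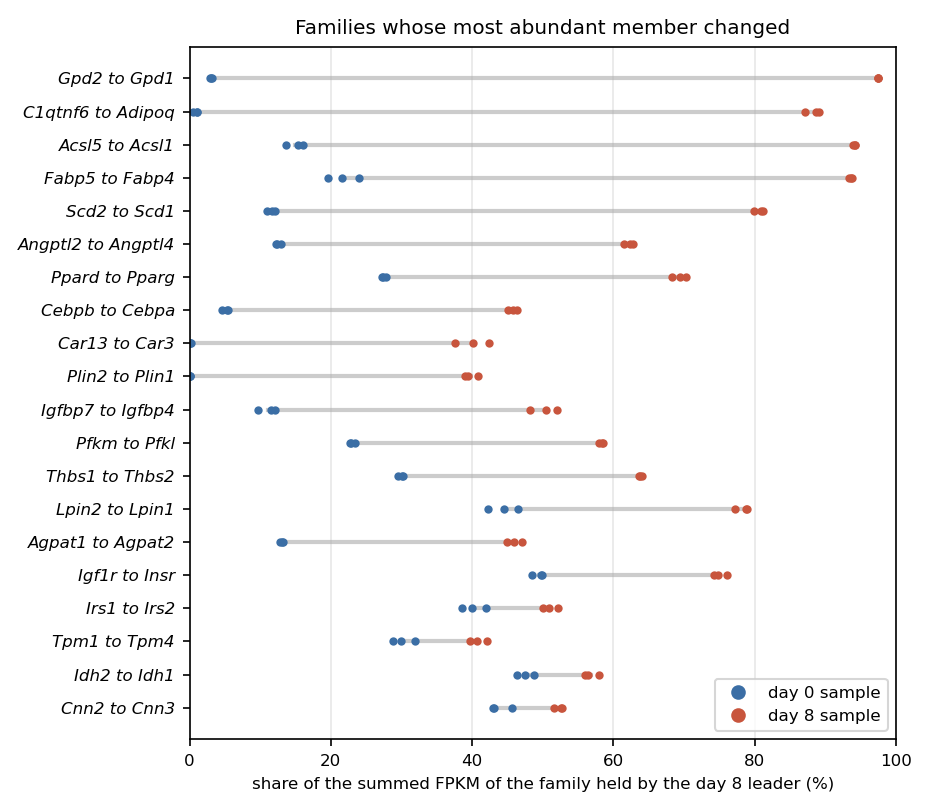
Share of the summed FPKM of a family (%) held by the gene that led at day 8, for the 20 families whose leading member changed, named as old leader to new leader; blue points are day 0 samples, red points day 8 samples, and grey bars join the means. Gpd1 has the widest step, from 3.07% to 97.5%, and the calponins, isocitrate dehydrogenases and tropomyosins the narrowest.

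Use of transcripts within a gene was read from the gene length in the files, which RSEM averages over the transcripts of a gene by their abundance. It was constant for all 13753 genes with a single transcript and varied in 4452 of 5341 genes with more. Among 3409 genes with several transcripts and at least 50 counts in every sample of the series, 23 changed in average length by at least 10% (0.675% of those tested, limma on log2 length, adjusted p under 0.05), 10 (0.293%) to a longer and 13 (0.381%) to a shorter average. Of the 23, 19 were not called for expression, a share near the background, since 18.0% of all genes tested for expression were called. The test was added after the files were seen, and the genes named below were chosen by their values.

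Prkag2, which encodes a regulatory subunit of the energy sensor AMPK, had the largest change. Its average length was 2270 ± 13.6 bases at day 0 and 3176 ± 35.3 bases at day 8 (SD, n = 3 each, adjusted p = 0.000455, limma). Rbpms, an RNA-binding protein, went from 1746 ± 38.7 to 1453 ± 22.2 bases, and Tsc22d1, a leucine zipper protein with a long and several short forms, from 2070 ± 12.6 to 1804 ± 11.2 bases. Lonp2, a peroxisomal protease, went from 2931 ± 8.25 to 2609 ± 25.4 bases, and Arrdc4, an arrestin-related protein, from 2809 ± 35.6 to 3506 ± 103 bases. For each of these the samples of the days did not overlap. Pparg, which is transcribed from several promoters, went from 1914 ± 11.5 to 1799 ± 2.10 bases, an adjusted p of 0.000404 with a change below the 10% asked for. The average length of Lpin1 was 5588 ± 14.9 and 5574 ± 2.06 bases, and that of Tpm1 1676 ± 5.57 and 1673 ± 2.49 bases, neither of them past the threshold. Lengths of single transcripts were not used here, so the transcripts behind a change are not named.

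**Figure D5:**
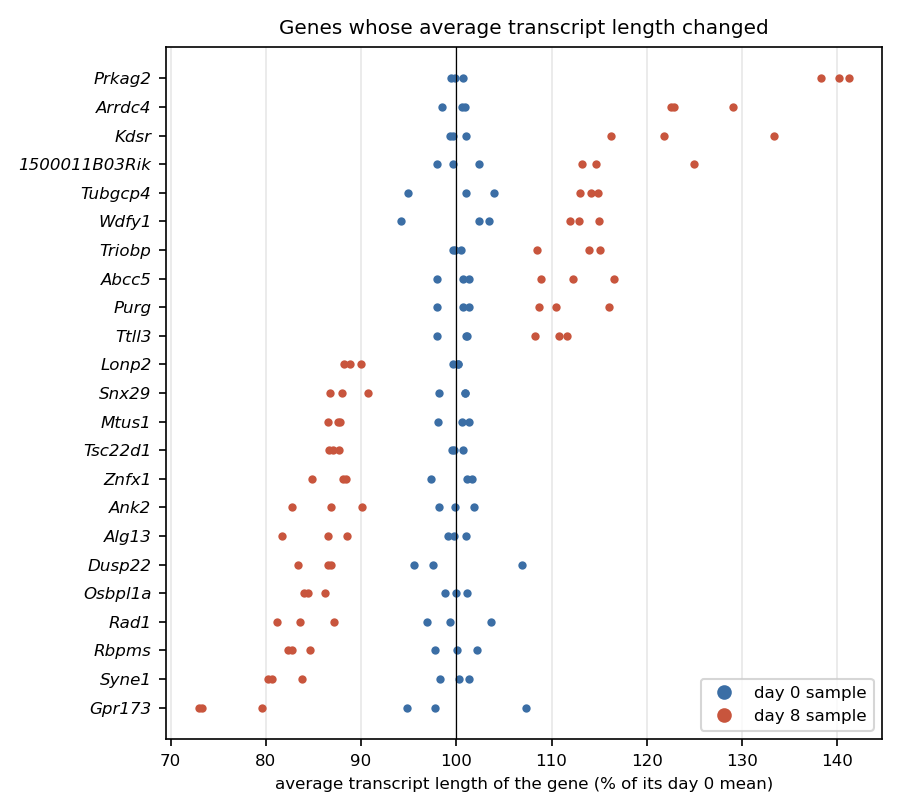
Average transcript length of a gene in each sample, in percent of its day 0 mean, for the 23 genes called for length; blue points are day 0 samples and red points day 8 samples. Prkag2 is farthest to the right with a mean change of 39.9%, and Gpr173 farthest to the left with a mean change of −24.7%.

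The gene lists, which were drawn up with earlier results of these data known, put the named genes in context. All values are log2 fold changes of day 8 over day 0, and the median over all 13154 genes tested was −0.02. The counts of each list stand against the 10.3% of all genes tested that rose and the 7.70% that fell. Of 16 droplet and lipolysis genes tested 15 rose and 0 fell (median 4.90), and of 20 genes of fatty acid uptake and triglyceride synthesis 13 rose and 0 fell (median 2.83). De novo lipogenesis had 9 of 17 higher (median 1.12). In that pathway Fasn, the fatty acid synthase, rose from 44.1 ± 1.27 to 107 ± 2.75 FPKM, while Acaca, the acetyl-CoA carboxylase that feeds it, was at 17.0 ± 0.42 and 20.3 ± 0.82 FPKM and Acly, which makes its acetyl-CoA, at 62.0 ± 4.07 and 68.6 ± 1.66 FPKM, neither of them called. Slc25a1, the citrate carrier, and Me1, a source of NADPH, rose, from 64.2 ± 0.96 to 182 ± 9.03 FPKM and from 35.0 ± 0.66 to 73.4 ± 2.81 FPKM.

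Mitochondrial lists had many rises and no falls. Of 30 genes of fatty acid and branched-chain amino acid breakdown 25 rose and 0 fell (median 1.47), beside 10.3% and 7.70% of all genes, among them Etfb, an electron acceptor of the acyl-CoA dehydrogenases, and Bckdhb, a subunit of the branched-chain keto acid dehydrogenase, which went from 12.3, 13.9 and 13.2 FPKM to 65.1, 72.7 and 69.7 FPKM. Of 26 citrate cycle and pyruvate genes 14 rose (median 1.05), led in size by Pcx, the pyruvate carboxylase, from 19.0 ± 0.98 to 277 ± 13.5 FPKM. Glycolysis had 11 of 17 higher and 0 lower (median 1.82), among them Aldoa, Tpi1 and Ldha. Of 16 adipokines and secreted adipocyte proteins tested 13 rose (median 3.70), among them Lep, the gene of leptin, which was at 0 in each day 0 sample and at 0.74, 0.94 and 0.98 FPKM at day 8.

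Matrix genes moved in both directions. Of 28 interstitial matrix genes 12 rose and 4 fell (median 0.71), and of 21 basement membrane genes 7 rose and 3 fell (median 0.70), beside 10.3% and 7.70% of all genes tested. Lum and Dcn, small proteoglycans that bind collagen, rose to 195 ± 4.99 FPKM and 912 ± 35.9 FPKM, Lum from 2.67, 3.15 and 3.87 FPKM at day 0. Fn1, Tnc, Thbs1 and Col12a1, glycoproteins and a collagen of the pericellular matrix, fell, Tnc from 34.5 ± 0.96 to 5.11 ± 0.10 FPKM. Among actin and contractile genes 0 of 31 rose and 9 fell (median −0.53), with Acta2, the smooth muscle actin, at 277, 343 and 283 FPKM at day 0 and at 87.6, 77.7 and 72.9 FPKM at day 8. Of 30 cell cycle genes 4 fell and 0 rose (median −0.61), beside 7.70% and 10.3% of all genes tested, and Pcna, the DNA polymerase clamp, was at 79.6 ± 10.8 and 58.6 ± 2.16 FPKM, below the threshold. Day 0 sample 2 was the highest for this list, with 0.154% of the summed FPKM beside 0.116% and 0.118% in the other day 0 samples. Mki67, the proliferation antigen Ki-67, was at 9.87, 14.2 and 9.56 FPKM at day 0 and at 4.93, 4.95 and 4.42 FPKM at day 8, and lost its call without that sample (log2 fold change −0.92). The call of Cenpf was lost with limma on log2(FPKM + 1).

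Of 22 preadipocyte markers and inhibitors of adipogenesis tested, 7 fell and 1 rose (median −0.33), and of all genes 7.70% and 10.3%. Those that fell included Id1, Id2 and Id3, and the member that rose was Twist1, a bHLH factor of mesenchymal cells, from 37.3 ± 3.38 to 80.8 ± 5.32 FPKM. Of 28 interferon-stimulated genes 24 fell and 1 rose (median −2.54). Isg15, a ubiquitin-like modifier, was at 178, 119 and 145 FPKM at day 0 and at 16.9, 14.2 and 15.4 FPKM at day 8, and the gene that rose was Ifi27. The day 0 samples varied more than the day 8 samples for Isg15, Oasl2 and Ifit1, with sample 1 highest and sample 2 lowest, and all day 0 samples were above all day 8 samples.

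TRP channels, cation channels that the study examined in these cells, had 2 of 14 tested genes higher and 1 lower (median −0.32), shares near the 10.3% and 7.70% of all genes tested. Trpv1, the capsaicin receptor, was at 0.11, 0.09 and 0.08 FPKM at day 0 and at 0.36, 0.55 and 0.56 FPKM at day 8, Trpv6 rose to 0.167 ± 0.076 FPKM, and Trpm6 fell from 0.133 ± 0.040 to 0.0233 ± 0.0058 FPKM. All 3 stayed below 1 FPKM, and the calls of Trpv6 and Trpm6 were lost with limma on log2(FPKM + 1) and on log2(FPKM + 0.1) and that of Trpv1 with the former. The abundant members were Pkd2, at 52.8 ± 0.82 and 27.7 ± 0.82 FPKM, Mcoln1, at 37.3 ± 3.64 and 28.5 ± 1.31 FPKM, and Trpm7, at 21.2 ± 0.05 and 12.1 ± 0.72 FPKM, none of which passed the fold threshold. Their day 8 samples were all below their day 0 samples. Without a fold threshold, 9339 of 13154 genes tested had an adjusted p below 0.05 (edgeR).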

How the data were processed

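The members and gene lists of this comparison were chosen with earlier results of these data known. Per the labels, the submitters' processing notes name CASAVA 1.4 and Bowtie2, and the study's methods name read filtering, mapping with HISAT and Bowtie2 and quantification with RSEM. The genome build of the files is not given in the sources used here, and the promoter coordinates printed are those of the RefSeq table (GRCm38.p6). The deposited expected counts are RSEM estimates per gene without normalization (29.7% are not whole), and the deposited FPKM are levels that the authors divided by effective gene length and depth. The gene length in the files, in bases, was averaged by the authors' tool over the transcripts of a gene. Each file lists only genes with a value above 0, so a gene missing from a sample was set to 0.

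Expected counts were rounded and tested with edgeR 4.0.16 (R 4.3.3) by filterByExpr, TMM and a quasi-likelihood fit of all 9 samples with a coefficient per day. Benjamini-Hochberg adjustment ran over 13154 genes, and a call needed an adjusted p below 0.05 with more than a 2-fold difference. The SE is the log2 fold change divided by the square root of F. The limit that a count of 0 allows, 3 counts, equals 0.147 to 0.165 CPM, a limit for counting error only. Average lengths were tested with limma 3.58.1 on the log2 scale. Named genes were drawn from the 20 most abundant of each day and the 10 largest rises and falls at 10 FPKM or more. Further sources were the 10 most abundant gained and lost genes and the leaders of changed families. The rest came from up to 4 called members of each list, the TRP channels and the cell type markers. Not every such gene is named, and others were chosen after their values were seen. On simulated counts of 12821 genes with 200 changed, the edgeR test recovered all 100 changes of 3-fold and all 100 of 6-fold with 1 false call. Alternatives covered normalization, low-count filters, DESeq2 1.42.0, the edgeR exact test, limma on log2(FPKM + 1) and log2(FPKM + 0.1), sample sets and a replicate block. Sharing between genes was counted in stretches of 50 bases of GENCODE vM21 transcripts. Of 19094 gene IDs 19040 matched the RefSeq gene table, which also linked older symbols (Drgx as Prrxl1, C1qtnf12 as Fam132a), and 26 symbols changed to dates were restored. A further family, beside the 88 compared, is not reported here.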

Additional observations from a re-analysis of the deposited data

How the results depend on the processing

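With 3 samples a day, precision is limited by their number and, for genes under 1 FPKM, by counts of a few reads. The counts of rises and falls ranged over 920 to 1579 and 706 to 1257 under the count-based alternatives and stayed within 1.5 times, although rises were 49.5% of the calls with library size alone and 57.2% in the test used, and limma on log2(FPKM + 1) called 753 rises and 528 falls. Scaling by library size alone moved the median log2 fold change of all genes from −0.018 to −0.129, and limma on log2(FPKM + 0.1) to −0.125. Leaving out a sample gave 1376 to 1399 rises and 1014 to 1076 falls. Samples of the same number showed correlations of deviations of 0.0337, 0.0263 and 0.0419, and each correlated best with its own. Those of different numbers lay between −0.0248 and −0.0085. Whether samples of the same number shared a culture or a batch was not tested. With the replicate block 1360 genes rose and 1010 fell.

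Gained genes numbered 13 with 0 counts required at day 0, 101 at 0.5 FPKM, 42 at 2 FPKM and 111 on a TPM scale. In rounded counts, 15 of the gained genes had 0 in every day 0 sample. Among these were Ear12 and Ear3, each at 0.04 FPKM in day 0 sample 2. Lost genes numbered 0 with 0 counts required, 31 at 0.5 FPKM, 8 at 2 FPKM, 37 on a TPM scale, 14 to 31 with 1 sample left out (25 without day 0 replicate 1, 31 without day 0 replicate 2, 21 without day 0 replicate 3) and 0 with at least 10 counts, the last added after the data were seen. Families with a new leader numbered 19 to 22, and genes called for length 27 at a minimum of 20 counts and 18 at a minimum of 200.

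As shares of expected counts, differences of day 8 minus day 0 in percentage points were 0.667 for droplet genes, 1.31 for fatty acid uptake, 1.19 for lipogenesis, 0.227 for mitochondrial breakdown, 0.368 for the citrate cycle, 0.311 for adipokines, 0.101 for adipogenic factors, −0.196 for preadipocyte genes, 1.60 for interstitial matrix, 0.292 for basement membrane, 1.31 for glycolysis, −0.250 for interferon-stimulated genes, 0.0058 for receptors, −0.022 for TRP channels and −1.11 for ribosomal proteins. Without the 10 most abundant genes they were 0.651 for droplet genes, 0.737 for fatty acid uptake, 0.276 for mitochondrial breakdown, 0.381 for the citrate cycle, 0.676 for adipokines, 0.0929 for adipogenic factors, 0.326 for glycolysis, −2.10 for ribosomal proteins and, reversed, −0.050 for interstitial matrix, where the leading matrix genes drop out of the sum by construction.

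Direction reversed in 10 genes that were not called, whose log2 fold changes lay between −0.16 (Mbp) and 0.20 (Trpm3). The order is upper-quartile normalization, library size, limma on log2(FPKM + 1) and limma on log2(FPKM + 0.1). Angptl2 gave −0.0082, −0.063, −0.063 and −0.064, Bgn −0.018, −0.073, −0.074 and −0.074, Irs1 −0.045, −0.099, −0.093 and −0.099, and Thy1 −0.045, −0.10, −0.10 and −0.10. From library size on, Ftl1 gave −0.044, −0.045 and −0.045, Lpin2 −0.039, −0.035 and −0.040, and Trpv2 −0.0030, −0.0004 and −0.0046. Mbp gave 0.0022 and 0.026 under the limma fits. With 1 sample left out, Irs1 ranged from −0.030 to 0.059 (also −0.0082), Lgals1 from −0.069 to 0.0096, Mbp from −0.41 to 0.16, Thy1 from −0.018 to 0.040, Trpm3 from −0.023 to 0.40 and Trpv2 from −0.038 (also −0.011) to 0.29. The cause was not tested. Calls were lost under 5 alternatives for Idh1 and 4 each for Ppard and Etfa, and Gpd2 passed as a fall under 2. With limma on log2(FPKM + 1), calls lost included those of Cd34, Elovl3, Vwf, Des, S100b, Cenpf, Col18a1 and Trpv1. Calls for Rps27rt and Acta1 were lost under 6 alternatives each (Rps27rt: adjusted p of 0.055 to 0.0832, for example 0.0832 without day 0 replicate 3).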
